A study of Mus musculus with 6 samples.

Results

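The genes described here are those of the MHC class II pathway of antigen presentation: H2-Aa, H2-Ab1 and H2-Eb1, which encode chains of the class II molecules themselves, Cd74, which encodes the invariant chain, and H2-DMa, H2-DMb1 and H2-DMb2, which encode chains of the peptide-exchange molecule H2-DM. They were chosen by name, as every probe whose gene symbol, in the array's own annotation or through its RefSeq accession, is one of these 7. This gave 12 probes for the 7 genes among the 41174 probes of the array. H2-Ab1 has 4 probes, of which 2 carry the older name Rmcs1 in the files, H2-Aa and H2-DMb2 have 2 each and the others 1 each. Cd74 is named Ii in the files.

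Class II molecules are pairs of an alpha and a beta chain that display peptides from engulfed proteins to helper T cells. They assemble with the invariant chain, which blocks the peptide groove and steers the complex to endosomes, where cathepsins cut it away and H2-DM exchanges the last fragment for antigenic peptide. Their main producers are dendritic cells, B cells and macrophages, and interferon gamma can induce them in other cells through the transactivator Ciita. In a whole-tissue sample of prostate, class II RNA therefore depends on immune cells as well as on any production by epithelium. Inbred mice of the q haplotype, which FVB mice carry, do not display the second class II molecule, E, of which H2-Eb1 encodes the beta chain.

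The study used whole mouse genome oligonucleotide arrays of Agilent with a red (Cy5) and a green (Cy3) channel, and RNA of ventral prostate, the androgen-dependent lobe of the mouse prostate, from mice of FVB background. The green channel of each of the 6 arrays held wild type RNA of mice 2.5 months old (young wild type). The red channel held fl26, a line transgenic for 15-LOX2, a lipoxygenase that oxidises arachidonic acid, at 2.5 months (2 arrays), svb9, a line transgenic for splice variant b of 15-LOX2, at 2.5 months (2 arrays), or old wild type mice at 15 months (2 arrays). Each transgene is thus represented by 1 line, the labels do not name the promoter that drives it, and each RNA is a pool, of 3 mice by the sample labels and of 6 by the design text. The dyes were not swapped, so dye and group cannot be told apart against young wild type, but a dye effect cancels between the red groups. The second array of each group is described as an independent set of samples. In tissue RNA, fewer cells of a type and less RNA per cell cannot be told apart.

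All of the genes but Cd74 lie in the class II region of chromosome 17, in the order H2-DMa (34119693 to 34139101), H2-DMb2 (34143229 to 34151553), H2-DMb1 (34153191 to 34160229), H2-Ab1 (34263227 to 34269418), H2-Aa (34282744 to 34287823) and H2-Eb1 (34305867 to 34316674), on assembly GRCm38.p6. Class II promoters are known for a shared module, the X box, bound by the RFX complex, followed by the Y box, bound by NF-Y, on which Ciita acts. RefSeq promoter windows of 300 bases (250 before to 50 after a start site, GRCm38.p6) were used for 5 of the 7 genes. No window was available for H2-Ab1, and Cd74, which lies outside the class II region, was left out. The letters are those of the assembly, and the sequence of the FVB mice was not read here. The windows are shown because the brightest probes of H2-Eb1 and H2-DMb1, which had the lowest and the highest fl26 mean, belong to genes with the same module. The 4 windows with a Y box core are printed from 60 bases before that core to 20 after it, and capitals mark the Y box core TGATTGG and the X box core AACNGATG, searched on both strands after the windows had been seen. The Y box core contains ATTGG, the reverse complement of CCAAT.
H2-Aa, chr17:34287847-34287933, minus strand: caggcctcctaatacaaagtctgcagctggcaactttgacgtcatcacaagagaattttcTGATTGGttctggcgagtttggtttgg
H2-Eb1, chr17:34305746-34305832, plus strand: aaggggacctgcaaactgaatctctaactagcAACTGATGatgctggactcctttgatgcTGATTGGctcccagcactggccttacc
H2-DMb1, chr17:34153068-34153154, plus strand: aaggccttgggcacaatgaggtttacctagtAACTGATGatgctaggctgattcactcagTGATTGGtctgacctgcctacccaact
H2-DMb2, chr17:34145097-34145183, plus strand: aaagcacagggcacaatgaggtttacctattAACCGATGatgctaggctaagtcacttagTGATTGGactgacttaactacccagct

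The Y box core began 50 bases before the start site in H2-Aa, 61 in H2-Eb1, 63 in H2-DMb1 and 92 in H2-DMb2. In H2-Eb1, 20 bases separated the X box core from the Y box core, and in H2-DMb1 and H2-DMb2 21 bases did. The searched letters of the X box core were not in the H2-Aa window, and neither core was in the 2 windows of H2-DMa. Among all 32851 promoter windows of that length, 7.82% held TGATTGG, 2.32% held AACNGATG, 37.4% held CCAAT and 0.186% (61 windows) held both cores. These matches are a description of the letters in these windows.

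The class II signal was well above background in young wild type prostate but weak. On each array, 11 of the 12 probes were well above background in green, and 1 H2-DMb2 probe (A_52_P1391) was not above background in either channel on any array and was not tested. The brightest probe, A_52_P683598 of H2-Ab1, had a green spot mean between 5.63 and 7.44 times its local background. The other genes' brightest probes lay lower, between 1.52 times (H2-DMb2) and 5.27 times (Cd74). No class II probe was saturated.

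Red signal differed far more between arrays. Of the 11 tested probes, 11 were well above background in red on fl26 array 1 and on svb9 array 1, 6 on fl26 array 2, 5 on svb9 array 2, 5 on old array 2 and 0 on old array 1. The whole array showed the same order at its ends: between 3219 probes (old array 1) and 27833 probes (svb9 array 1) were well above background in red, against 24837 to 30382 in green. On old array 1 the red spot means of the 12 probes lay between 1 and 1.18 times background, so the ratios of that array hold no class II signal of the old mice that stood above background. Each result for old wild type that follows pools that array with old array 2 unless old array 2 is named alone. Replicate arrays correlated weakly over the tested probes (r = 0.25 for fl26, 0.17 for svb9 and 0.39 for old wild type), below fl26 array 2 with svb9 array 2 (r = 0.67).

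**Figure D1:**
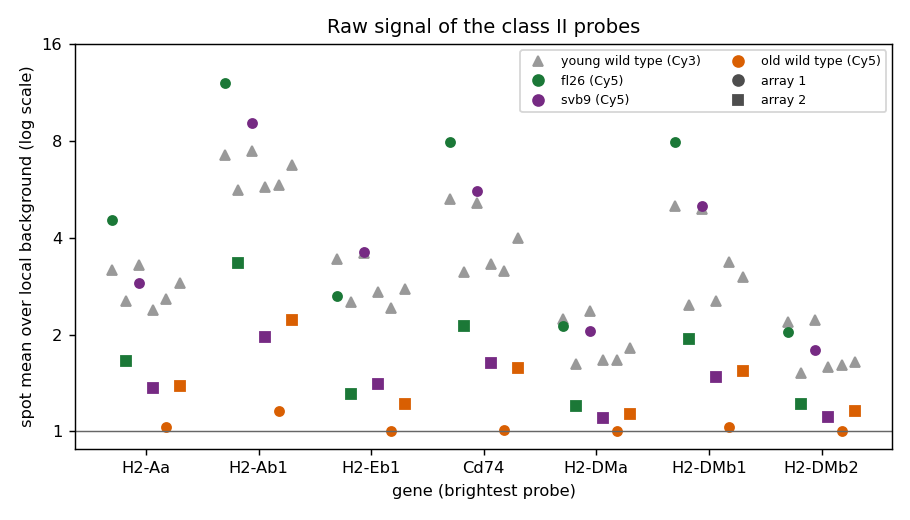
Spot mean over local background (log scale) for the brightest probe of each class II gene. Circles and squares are the red channel of arrays 1 and 2 of each group, triangles the green channel (young wild type) of the same arrays. Red lies near 1, the background, for all 7 genes on old array 1, and reaches 12.1 for H2-Ab1 on fl26 array 1.

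The fl26 line was compared with young wild type to ask how the 15-LOX2 transgene relates to expression in the prostate. Values are log2 ratios of red over green, where 0 is an equal level, after background correction and loess normalization. Class II genes leaned to higher ratios in fl26, with the exception of H2-Eb1, but no probe passed the test after adjustment unless the replicate number entered the fit as a block. In fl26, 0 of the 11 tested class II probes had a limma adjusted p under 0.05, against 0.0503% of all 27860 tested probes. At an unadjusted p under 0.05 there were 5 of 11, against a background of 10.2%: 4 on the higher side (background 5.75%) and 1 on the lower side (background 4.42%). With the block, 2 of 11 passed, 1 probe each of H2-Eb1 and H2-Aa, against a background of 3.59%. The median over the 7 genes' brightest probes was 0.22, with 0.29 on array 1 and 0.08 on array 2, beside 0.00 over all tested probes, and over all 11 class II probes it was 0.07. Under median centring in place of loess the median of the 7 genes was 0.43, with H2-Aa at 0.43, H2-Ab1 at 0.55 and H2-DMb1 at 0.68, while the median of all tested probes moved to 0.35 on fl26 array 1 and to -0.04 on array 2. For 5 of the 7 genes both fl26 arrays lay above 0, for 1 both lay below and for 1 they had opposite signs, whereas of all tested probes 27.3% lay above 0 and 26.1% below 0 on both fl26 arrays.

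Of the classical chains, H2-Aa encodes the alpha chain of the A molecule. Its brightest probe, A_51_P119760, read 0.41 and 0.04 in fl26, -0.19 and 0.04 in svb9 and -0.08 and 0.05 in old wild type. Only fl26 array 1 stood above the other 5 arrays. The fl26 mean was 0.22 ± 0.11 (SE, n = 2), with a limma adjusted p of 0.568. Its other probe, A_52_P343306, read 0.58 and 0.31 in fl26, -0.04 and 0.07 in svb9 and 0.07 and 0.04 in old wild type. Both fl26 arrays read above all 4 others on that probe. The fl26 mean was 0.45 ± 0.09 (SE, n = 2), or 1.36-fold, with an unadjusted p of 0.00227 and a limma adjusted p of 0.253 (0.0440 with the replicate block). The red signal of this probe was well above background on 3 of the 6 arrays, both of fl26 and svb9 array 1. It was not so on svb9 array 2 or either old array, so fl26 and old wild type could not be ordered on it.

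H2-Ab1 encodes the beta chain of the A molecule, and its 4 probes disagreed. The brightest, A_52_P683598, read 0.40 and 0.14 in fl26, 0.04 and -0.27 in svb9 and 0.12 and 0.12 in old wild type. The fl26 arrays lay above the other 4, though array 2 only by a small margin. The fl26 mean was 0.27 ± 0.11 (SE, n = 2), or 1.21-fold, with an unadjusted p of 0.0413 and a limma adjusted p of 0.471. The other probes had fl26 means of 0.07, -0.12 and -0.07. Of these, A_51_P215242 and A_52_P570717, the dimmest in red, were well above background in red on 2 arrays only, so they carry little information on the groups. Averaged over all 4 probes, the fl26 value of H2-Ab1 was 0.04.

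H2-Eb1, the beta chain of the E molecule, went the other way. Its probe A_51_P393226 read -0.43 and -0.43 in fl26, -0.05 and -0.02 in svb9 and -0.18 and -0.20 in old wild type. Both fl26 arrays read below both svb9 arrays, and fl26 and old wild type could not be ordered, since their red signal was mostly not above background. The fl26 mean was -0.43 ± 0.07 (SE, n = 2), or 1.34-fold below young wild type, with an unadjusted p of 0.000651 and a limma adjusted p of 0.180 (0.0296 with the replicate block). In fl26 only array 1 had a red signal well above background, at 2.64 times background beside 3.43 times in green, and in old wild type neither array had. With the log ratios of the scanner software in place of these, the fl26 value was -0.92, and under median centring -0.28. The mean of -0.43 rests on 1 array with measured red signal.

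Cd74, the invariant chain, lies outside the class II region, on chromosome 18 (60803849 to 60812652, GRCm38.p6). It read 0.29 and 0.18 in fl26, -0.05 and 0.04 in svb9 and -0.20 and 0.01 in old wild type. Both fl26 arrays lay above the other 4, and the red signal was well above background on every array but old array 1. The fl26 mean was 0.23 ± 0.08 (SE, n = 2), or 1.17-fold, with an unadjusted p of 0.0320 and a limma adjusted p of 0.442. Under median centring the value was 0.51.

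H2-DM is made of an alpha chain, H2-DMa, and a beta chain from H2-DMb1 or H2-DMb2. H2-DMb1 read 0.43 and 0.37 in fl26, -0.13 and 0.14 in svb9 and -0.14 and 0.28 in old wild type. Both fl26 arrays lay above the other 4, and the 2 arrays of each of the other groups straddled 0. The fl26 mean was 0.40 ± 0.12 (SE, n = 2), or 1.32-fold, with an unadjusted p of 0.0162 and a limma adjusted p of 0.367. With the scanner software's log ratios it was 0.60.

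H2-DMa read 0.08 and -0.03 in fl26, -0.06 and -0.10 in svb9 and -0.13 and -0.03 in old wild type. The lower fl26 array and the higher old array both lay at -0.03, and the fl26 mean was 0.03 ± 0.07 (SE, n = 2), with a limma adjusted p of 0.932. H2-DMb2, by its tested probe A_52_P146877, read 0.06 and 0.08 in fl26, -0.09 and -0.04 in svb9 and -0.14 and 0.10 in old wild type. Its fl26 mean was 0.07 ± 0.08 (SE, n = 2), with a limma adjusted p of 0.817. That probe lists accessions of both H2-DMb1 and H2-DMb2, so it may read both transcripts. The red signal of H2-DMa and of this probe was well above background on 2 arrays only.

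**Figure D2:**
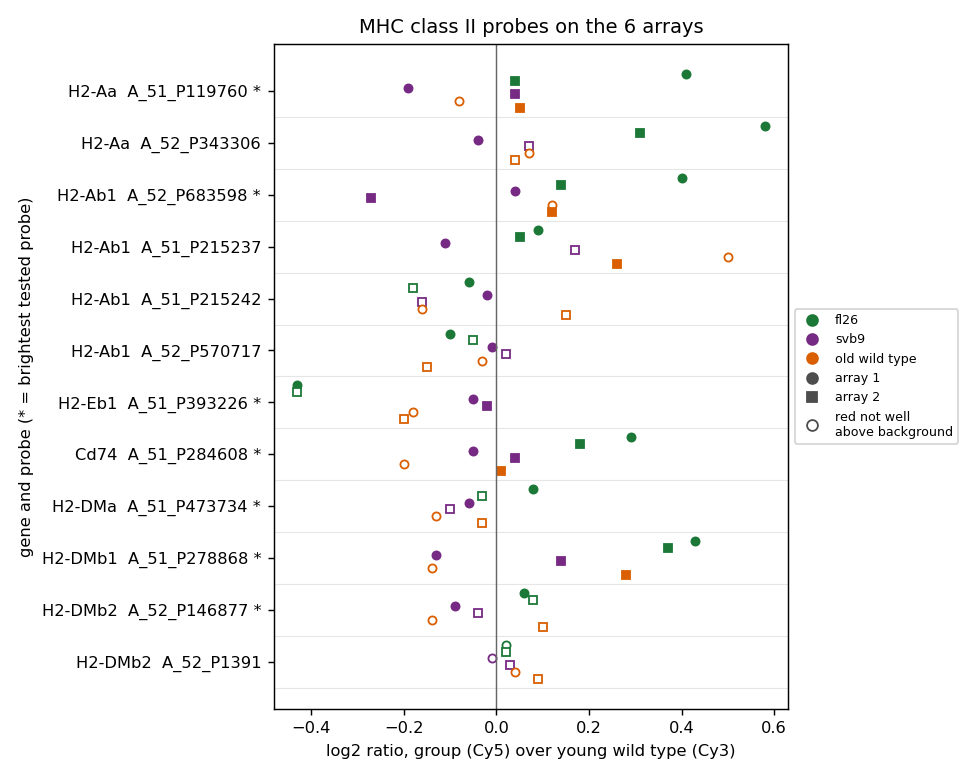
Log2 ratio over young wild type of each class II probe on the 6 arrays, with circles for array 1, squares for array 2 and open symbols where the red signal was not well above background. In fl26 both arrays lie at -0.43 for H2-Eb1 and at 0.37 and 0.43 for H2-DMb1, and all symbols of old array 1 are open.

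In svb9, the line with splice variant b, the class II ratios read close to 0, the young wild type level. Of the 11 tested probes, 0 passed (background 0% adjusted), and 0 had an unadjusted p under 0.05 (background 4.45%). The 7 genes' means lay between -0.12 ± 0.11 (H2-Ab1) and 0.01 ± 0.12 (H2-DMb1, SE, n = 2), with limma adjusted p from 0.980 to 0.999 and a median of -0.06 beside -0.00 over all tested probes. The 95% intervals of the 11 probes all included 0. Together they ran from -0.37 (H2-Ab1) to 0.30 (H2-DMb1) on the log2 scale, that is from 0.773- to 1.23-fold. Differences within a probe's own interval could not be seen, and the interval of H2-Eb1 ran from -0.20 to 0.13. Both svb9 arrays lay below 0 for 3 genes (H2-Eb1, H2-DMa and H2-DMb2) and had opposite signs for 4. Of all tested probes, 28.0% lay below 0 and 27.5% above 0 on both svb9 arrays. On svb9 array 2 only 5 of the 11 tested probes were well above background in red. Those that were not were H2-DMa, H2-DMb2, A_52_P343306 of H2-Aa and all H2-Ab1 probes but the brightest. The ratios near 0 therefore cannot show that class II expression was unchanged in svb9.

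Old wild type was compared with young wild type to ask how age relates to expression. Of the 11 tested probes, 0 passed (background 0% adjusted, over 27626 probes), and 2 had an unadjusted p under 0.05 (background 11.6%). With the replicate block 0 passed as well (background 4.29%). The 2 with an unadjusted p under 0.05 were A_51_P215237 of H2-Ab1 and the H2-Eb1 probe. A_51_P215237 read 0.50 and 0.26 on the 2 arrays, with a mean of 0.38 ± 0.10 (SE, n = 2, limma adjusted p = 0.2495). The 0.50 came from old array 1, where its red signal was not well above background. The other H2-Ab1 probes had old means of 0.12, -0.01 and -0.09. H2-Eb1 had a mean of -0.19 ± 0.07 (SE, n = 2, limma adjusted p = 0.372). The red signal of H2-Eb1 was not well above background on either old array, so its level there is only a bound, and the bound gave no fold against young wild type. The same held for 5 further tested probes: the second H2-Aa probe, A_51_P215242 and A_52_P570717 of H2-Ab1, H2-DMa and A_52_P146877 of H2-DMb2.

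On old array 2 alone, where 5 class II probes were measured in red, H2-Aa read 0.05, H2-Ab1 0.12, Cd74 0.01 and H2-DMb1 0.28. On old array 1 the same probes read -0.08, 0.12, -0.20 and -0.14, all with red near background. The 7 genes' median for the group was -0.02, beside -0.02 over all tested probes, and 0.05 on array 2 alone. Median centring in place of loess lowered that median to -0.59, with H2-Ab1 at -1.16 and H2-DMb1 at -0.63, while the median of all tested probes under it lay at -0.45 on old array 1 and at -0.24 on old array 2.

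Comparing the red groups with each other removes the dye. Between fl26 and svb9, which compares 15-LOX2 with its splice variant b, 0 of 11 class II probes passed (background 0%), and 3 had an unadjusted p under 0.05 (background 2.18%). The log2 difference, fl26 minus svb9, was -0.39 ± 0.10 (SE) for H2-Eb1, 0.43 ± 0.13 for A_52_P343306 of H2-Aa and 0.39 ± 0.15 for A_52_P683598 of H2-Ab1, each with a limma adjusted p of 0.99995. Cd74 differed by 0.24 ± 0.12 and H2-DMb1 by 0.39 ± 0.17. Array 1 of both lines was read from its scan on the same day, according to the file headers. Within that day fl26 minus svb9, by the brightest probes, was 0.60 for H2-Aa, 0.35 for H2-Ab1, 0.34 for Cd74 and 0.56 for H2-DMb1. It was -0.37 for H2-Eb1, 0.14 for H2-DMa and 0.15 for H2-DMb2. The other H2-Aa probe differed by 0.63, and the other H2-Ab1 probes by 0.20, -0.04 and -0.08.

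Old wild type against fl26 gave 0 of 11 adjusted (background 0%) and 3 unadjusted (background 7.84%). These were A_52_P343306 of H2-Aa (-0.39 ± 0.13), Cd74 (-0.33 ± 0.12) and H2-Eb1 (0.24 ± 0.10), old minus fl26 on the log2 scale. For the H2-Aa probe and H2-Eb1 the red signal was above background on neither old array, so the old level is only a bound and no fold could be given. Within the day shared by old array 1 and fl26 array 2 the differences were -0.24, -0.37 and 0.24, but old array 1 had no class II probe above background in red, so these do not repeat the group values. Old wild type against svb9 gave 0 of 11 adjusted (background 0%) and 1 unadjusted (background 4.77%), A_51_P215237 of H2-Ab1 at 0.35 ± 0.14, which also includes old array 1. Within the day shared by their second arrays that probe differed by 0.08. These comparisons share arrays with those against young wild type and are not independent of them.

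With the day of reading as a term in the fit, the fl26 values were 0.51 for H2-DMb1 (limma adjusted p = 0.0818), -0.42 for H2-Eb1 (0.104), 0.46 for A_52_P343306 of H2-Aa (0.115) and 0.28 for Cd74 (0.198), and again 0 of 11 passed, against 0.434% of all probes. The day is that on which the software read the scan, not a day of RNA extraction or hybridisation.

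**Figure D3:**
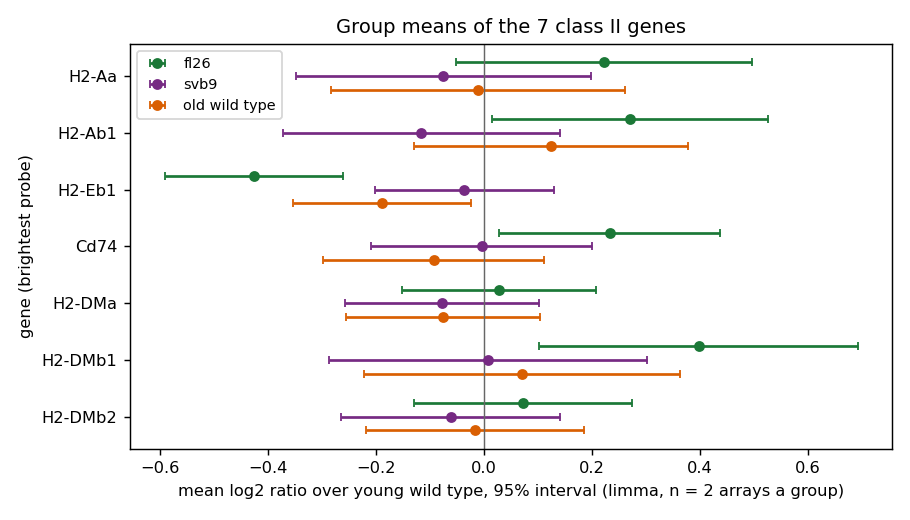
Mean log2 ratio over young wild type of each class II gene's brightest probe in the 3 groups, with 95% intervals from limma (2 arrays a group). In fl26, H2-DMb1 (0.40) and H2-Eb1 (-0.43) lie furthest from 0 on either side, and the intervals of svb9 all include 0.

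The genes varied together over the 6 arrays except for H2-Eb1. Of the 21 pairs among the 7 genes, 15 had a positive Pearson correlation, and the 6 negative pairs were those with H2-Eb1 (from -0.63 with H2-DMb2 to -0.80 with H2-Ab1). The highest were 0.93 for H2-DMb1 with H2-DMb2, which may share a probe target, and 0.90 for Cd74 with H2-DMb1. The median over all pairs was 0.60. The 6 arrays share the young wild type side and differ in red depth, so these coefficients describe the arrays and were not tested. The mean over the 7 genes was 0.18 and 0.05 on the fl26 arrays, -0.08 and -0.03 on the svb9 arrays and -0.10 and 0.05 on the old arrays.

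The profiles most like that mean, among 1415 genes with green signal on all 6 arrays and a standard deviation of at least 0.3, were those of Lyve1 (r = 0.98), Spink8 (0.93), Tfpi (0.93), Lyz2 (0.93), Fer1l3 (0.92) and Clec10a (0.91). Lyve1 encodes a hyaluronan receptor of lymphatic endothelium and some tissue macrophages, Lyz2 the lysozyme of macrophages and other myeloid cells, and Clec10a a lectin of macrophages and dendritic cells. Lyve1 read 1.02 and 0.57 in fl26, 0.19 and 0.12 in svb9 and -0.09 and 0.58 in old wild type. Clec10a read 1.12 and 0.84 in fl26, 0.49 and 0.42 in svb9 and 0.11 and 0.49 in old wild type.

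The machinery upstream of class II gave no call in any comparison without the replicate block. Of the 8 genes for Ciita and the factors on the X and Y boxes, 0 passed in fl26, 3 had a mean above 0 and 5 below, with a median of -0.02. Ciita itself was at -0.01 ± 0.09 (SE, n = 2) in fl26, with -0.01 for svb9 and 0.05 for the old mice and red signal above background on 2 of the 6 arrays. Rfx5 and Rfxank, subunits of the RFX complex, were at -0.03 and 0.01 in fl26, and the third, Rfxap, at 0.14 and 0.75 on the 2 arrays. In old wild type Rfxap read 0.15 and 1.01, and Nfyb, a subunit of NF-Y, -0.30 and -0.67 (limma adjusted p = 0.402 and 0.288, and 0.0411 and 0.0239 with the replicate block). For both genes the red signal was above background on old array 2 but not on old array 1.

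Of the 11 interferon gamma signalling genes, 0 passed in fl26, 5 had means above 0 and 6 below, with a median of -0.05. Irf2, a factor that can repress or activate interferon targets, read -0.50 and -0.72 in fl26, -0.39 and -0.28 in svb9 and -0.09 and -0.41 in old wild type. Its fl26 mean was -0.61 ± 0.11 (SE, n = 2), with a limma adjusted p of 0.212 (0.0251 with the replicate block). The kinase Jak1 read 0.16 and 0.45 in fl26.

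Of the 5 other genes of the class II region, H2-Oa and H2-Ob were measured, and H2-Eb2, Btnl2 and H2-Ea were not. H2-Oa and H2-Ob encode the chains of H2-O, which restrains H2-DM, mainly in B cells. H2-Ob read -1.03 and -0.46 in fl26, -0.09 and -0.22 in svb9 and -0.07 and -0.27 in old wild type. The fl26 arrays lay below the other 4, and the fl26 mean was -0.75 ± 0.14 (SE, n = 2), with a limma adjusted p of 0.235 (0.0373 with the replicate block). Its red signal was above background on array 1 of fl26 and of svb9 only. H2-Oa was at 0.03 ± 0.08.

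Of the 9 genes for lysosomal antigen processing, 0 passed in any comparison without the replicate block, with a fl26 median of 0.07. In fl26, 6 had means above 0, with Ctsd at 0.35 ± 0.20 and Cst3, an inhibitor of cathepsins, at 0.30 ± 0.20, and Ctss, the main protease of invariant chain removal, was at 0.13 ± 0.16. In old wild type the cathepsin gene Ctsb read -0.70 and -0.58, with a mean of -0.64 ± 0.09 (SE, n = 2) and a limma adjusted p of 0.131 (0.0190 with the replicate block). Of the 7 measured genes of costimulation and surface turnover, 0 passed. Cd80, a ligand of CD28, had a fl26 mean of 0.19 ± 0.09, and Cd274, the inhibitory ligand PD-L1, a mean of 0.28 ± 0.11 in old wild type, with red signal above background on neither old array.

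Markers of the cells that make class II were given the same reading. Of the immune cell lists, macrophage markers had the highest median in fl26: of 15 measured, 12 had means above 0, with a median of 0.17 and a list median of 0.36 on array 1 and 0.04 on array 2. The log2 ratio of their summed red over summed green signal was 0.78 and 0.27 on the fl26 arrays, 0.19 and -0.01 on the svb9 arrays and -0.05 and 0.25 on the old arrays. Lyz2 read 1.11 and 0.47 in fl26 (mean 0.79 ± 0.20, limma adjusted p = 0.308), Trem2 0.69 and 0.46 (mean 0.57 ± 0.09, limma adjusted p = 0.167, and 0.0225 with the replicate block) and Csf1r 0.28 and 0.24. Cd68 and Cx3cr1 were at -0.02 and -0.04. No other macrophage marker passed with the block and none without it, and the part of macrophage RNA in the class II ratios was not tested.

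Of the B cell markers, 8 were measured; 4 had fl26 means above 0 and 4 below, with a median of -0.00, and Ms4a1 was at 0.01. Dendritic cell markers (8 measured) had a fl26 median of 0.07, T and NK cell markers (9 measured) 0.04 and genes of all leukocytes (10 measured) 0.11, of which Tyrobp, a signalling adaptor of myeloid and NK cells, had a mean of 0.21 ± 0.08. In svb9 the medians of these 5 lists lay between -0.00 and 0.09. In old wild type they lay between -0.03 and 0.05, or between -0.02 and 0.05 on old array 2 alone. On old array 1, red was above background for 1 of 15 macrophage, 0 of 8 B cell and 0 of 8 dendritic cell genes. It was so for 0 of 9 T and NK cell and 0 of 10 leukocyte genes. In that order the counts were 6, 0, 2, 2 and 3 on old array 2. On svb9 array 2 they were 9, 1, 3, 4 and 5, and on fl26 array 2 they were 11, 2, 3, 4 and 6. The medians near 0 therefore cannot show that these cell types were unchanged. Without the block none of the genes of these 5 lists passed in any comparison. All 10 epithelial markers of ventral prostate, among them Pbsn, were measured, and 2 of 8 markers of the other lobes and seminal vesicle were. In old wild type 9 of 10 epithelial markers lay above 0, with a median of 0.53 (0.43 on old array 2 alone). Only 7 of the 10 had a value on old array 1 and 8 on old array 2, so some of these means rest on 1 array. The largest were Sbp, at 8.87 and 2.49, and Spink1, at 7.05 and 2.49. Both also read -1.61 and 0.28 in fl26 and -1.49 and 1.19 in svb9, so they may not be separate readings. In fl26 7 of 10 epithelial markers lay below 0, with a median of -0.14. But the list median was -0.31 on fl26 array 1 and 0.28 on array 2, where the class II median was 0.29 and 0.08. In svb9 the list median was -0.27 and 0.34. With the replicate block, Cdh1 (-0.54) and Msmb (-0.40) passed in fl26, and Epcam (0.72) and Krt18 (0.66) in old wild type. Msmb read -1.16 and 0.36 on the 2 fl26 arrays, so its call is not a decrease seen on both. Krt18 had an old value on array 2 alone (0.75). Markers of erythrocytes had a fl26 median of 0.15 over 4 genes, with the globin genes Hbb-bt at 0.50 ± 0.14 and Hba-a1 at 0.38 ± 0.11 (SE, n = 2, limma adjusted p = 0.330 and 0.376). The part of epithelial and blood RNA in the class II ratios was not tested.

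**Figure D4:**
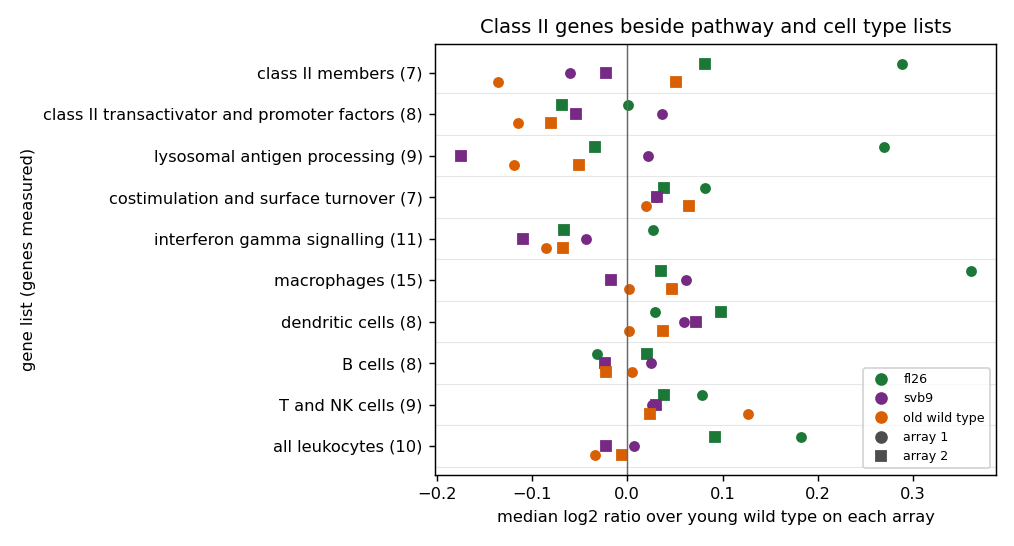
Median log2 ratio over young wild type on each array for the class II genes and for pathway and marker gene lists, with the number of genes measured in brackets. On fl26 array 1 the class II genes (0.29) and macrophage markers (0.36) lie highest, and on fl26 array 2 they lie at 0.08 and 0.04.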

How the data were processed

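Per the file headers, Agilent software (Feature Extraction A.7.5.1) turned the scans into spot intensities. The deposited files give mean spot and median background intensity in both channels without normalization, log10 ratios made by the same software, and flags for signal above background, saturation and outliers. The deposited series table holds the same log10 ratios rounded. From the intensities, log2 ratios were computed with limma 3.58.1 under R 4.3.3 (helped by statmod 1.5.0 and data.table, version 1.17.8): normexp correction with an offset of 50, which pulls ratios of dim probes toward 0, loess within arrays, control spots (2256 of 43790) and outlier spots left out, spots of a probe averaged. The 27860 tested probes were well above background in 1 channel on both arrays of a group. Limma fitted 3 group means over 6 arrays, with 2-sided Benjamini-Hochberg adjusted p over all tested probes (threshold 0.05). Since the young RNA is the other channel, its own spread does not enter a test against 0, and 2 arrays a group limit the precision. Names came from GRCm38.p6 tables: 20716 probes matched by systematic name, 113 by accession and 8 by another symbol, and 20337 kept the file's name. Of the class II probes, 10 were named by systematic name, 1 by accession and 1 by the file. Groups share the replicate numbers 1 and 2, and deviations of same-numbered arrays from their group means correlated over 0.1 in each pair of groups (r = 0.59, 0.33 and 0.17 over 26016 probes), though the labels describe no pairing. A fit with the number as a replicate block is therefore given beside each result whose call it changes, a choice made with its calls known. The brightest tested probe stands for a gene. All class II probes were named. Of the other lists, some but not all of the 2 genes with the largest ratios per comparison were named. Other list genes were chosen for their role or their call with the block, after their values were seen. The likeness rule named 6 genes. The members and lists were chosen with earlier results of these data known. The script was tested on simulated data.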

Additional observations from a re-analysis of the deposited data

Results flagged for a closer look

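H2-DMb2 differed in sign between the transgenic lines: by probe A_52_P146877, both fl26 arrays lay above 0 (0.06 and 0.08) and both svb9 arrays below it (-0.09 and -0.04), a log2 difference of 0.13 ± 0.12 (SE, n = 2 and 2). The difference itself did not pass the test (limma adjusted p = 0.99995). On array 2 of both lines the red signal of this probe was not well above background. The probe may also read H2-DMb1.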

How the results depend on the processing

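The counts of called class II probes were recomputed under 111 alternatives over the 6 comparisons, and 110 gave 0 as before. The exception was the model with a replicate block, in which 2 class II probes passed in fl26, H2-Eb1 (-0.43, limma adjusted p = 0.0296) and A_52_P343306 of H2-Aa, where 1001 of 27860 probes (3.59%) passed. Among 102 genes of the other lists the block gave 5 calls in fl26: Cdh1, H2-Ob, Irf2, Msmb and Trem2. In old wild type it gave 7: Creb1, Ctsb, Ctsd, Epcam, Krt18, Nfyb and Rfxap. Of these, Ctsd had a value on old array 1 alone and Krt18 on old array 2 alone. The block changed no other call of a class II probe or list gene in the 6 comparisons. The strict filter left no class II probe to test in the 3 comparisons with old wild type.

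Single genes reversed sign in 19 of 517 recomputed values, all of them of genes that had not passed. Under median centring these were Cd74 (0.095) and H2-Eb1 (0.035) in svb9 and H2-Ab1 (-1.16) and H2-DMb1 (-0.63) in old wild type. With the scanner software's log ratios and with the series table, Cd74 was 0.0068 in svb9 under either. H2-DMb1 in svb9 was -0.0048 without background correction and -0.073 with the day as a term. H2-Aa in old wild type was 0.011 with the day as a term and 0.021 as the mean of its probes. Leaving out each array in turn gave -0.028 to 0.083 for H2-DMa in fl26. In svb9 it gave -0.051 to 0.041 for Cd74, -0.19 to 0.038 for H2-Aa, -0.27 to 0.042 for H2-Ab1 and -0.13 to 0.14 for H2-DMb1. In old wild type it gave -0.20 to 0.0094 for Cd74, -0.076 to 0.051 for H2-Aa, -0.14 to 0.10 for H2-DMb2 and -0.14 to 0.28 for H2-DMb1. The cause was not tested. In fl26, H2-Aa was 0.04 without array 1.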
